A study of Mus musculus with 12 samples.

Results

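The anaplastic lymphoma kinase gene Alk and 9 genes whose proteins sit directly below the ALK kinase were followed through 4 groups of mice: the adaptors Shc1, Grb2 and Irs1, the signaling enzyme Plcg1, the phosphatases Ptpn6, Ptpn11 and Ptpn1, the phosphoinositide 3-kinase regulatory subunit Pik3r1 and the kinase Src. The genes were chosen by symbol, and all 10 were found among the 50600 gene IDs of each count file and passed the low-count filter. RNA was sequenced from 12 mice of a mixed C57Bl/6 x SV/129 background, 3 per group and one library per mouse. Ctrl mice carried DNMT1 fl/fl alleles without Cre and gave thymocytes at 20 to 25 weeks of age. KO mice carried DNMT1 fl/fl with CD4-CRE and gave thymocytes at 20 to 21 weeks. ALK mice carried the NPM-ALK transgene and gave T cell lymphoma cells at 22 to 31 weeks. ALKKO mice carried NPM-ALK together with DNMT1 fl/fl and CD4-CRE and gave thymocytes at 19 to 25 weeks. The transgene is a human NPM-ALK cDNA driven by Cd4 regulatory sequence, and Cre was driven by Cd4 as well, a gene of the T lineage. The mice were males except for 1 female in the KO group. These ages are those of the sample labels, and the text of the study gives a single age below all of them, a difference that the sources used here do not resolve.

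ALK is a receptor tyrosine kinase that T cells normally do not make. In anaplastic large cell lymphoma a chromosomal translocation fuses its kinase part to nucleophosmin, and the fusion is active without a ligand. The active kinase phosphorylates itself, and proteins with phosphotyrosine-binding domains dock on it: SHC1, GRB2 and IRS1 lead to RAS and the MAP kinases, p85alpha (Pik3r1) to phosphoinositide 3-kinase and AKT, and PLC-gamma1 to calcium and protein kinase C. SRC is a kinase that binds and phosphorylates the fusion, SHP-2 (Ptpn11) is a phosphatase that promotes RAS signaling, and SHP-1 (Ptpn6) and PTP1B (Ptpn1) are phosphatases that remove phosphate from tyrosine kinases. DNMT1 copies DNA methylation at CpG dinucleotides to the new strand at replication.

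Because the groups differ in the enzyme that maintains CpG methylation, the promoters of 3 of the genes are shown, chosen as the pair whose RNA was lower in the tumors (Src, Pik3r1) and the phosphatase with the highest level per length in control thymus (Ptpn6). Each sequence is the 250 bases before the RefSeq start on GRCm38.p6, read 5′ to 3′ on the gene's strand, and capitals mark every CpG. The windows lie at chr2:157424043-157424292 (plus strand), chr13:101768218-101768467 (minus strand) and chr6:124738710-124738959 (minus strand), respectively.
Src: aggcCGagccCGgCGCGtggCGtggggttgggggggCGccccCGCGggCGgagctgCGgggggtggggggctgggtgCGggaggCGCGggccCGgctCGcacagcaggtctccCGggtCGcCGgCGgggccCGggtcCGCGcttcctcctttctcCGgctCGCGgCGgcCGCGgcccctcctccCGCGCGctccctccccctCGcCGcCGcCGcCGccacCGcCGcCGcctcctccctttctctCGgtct
Pik3r1: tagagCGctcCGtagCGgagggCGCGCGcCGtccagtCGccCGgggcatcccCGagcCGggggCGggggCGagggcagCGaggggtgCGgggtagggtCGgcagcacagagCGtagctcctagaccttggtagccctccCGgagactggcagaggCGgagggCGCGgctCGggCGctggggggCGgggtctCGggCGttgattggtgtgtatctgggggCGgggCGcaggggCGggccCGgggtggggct
Ptpn6: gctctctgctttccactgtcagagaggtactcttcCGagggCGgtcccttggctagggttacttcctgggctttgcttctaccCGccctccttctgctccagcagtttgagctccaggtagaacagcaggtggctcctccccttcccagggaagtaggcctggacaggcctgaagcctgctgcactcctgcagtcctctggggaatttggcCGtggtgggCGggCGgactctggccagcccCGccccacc
The Src window holds 40 CpG, more than 98.7% of the 32851 RefSeq promoter windows of this length, and the Pik3r1 window holds 30, more than 94.1% of them. The Ptpn6 window holds 7, near the median of 6 over all windows. The set called all windows here leaves out a chromosome that holds none of the 10 genes. RefSeq gave 13 windows for the 10 genes, since Shc1, Grb2 and Pik3r1 have a second start each. Among the other genes, Ptpn1 had 41 CpG, Ptpn11 31, Irs1 28, Alk 23 and Plcg1 21, while the Shc1 windows had 12 and 4, the Grb2 windows 2 and 6 and the downstream Pik3r1 window 6. The STAT motif TTCNNNGAA, which reads the same on both strands, was in 0 of the 13 windows and in 7.02% of all windows. The GC box GGGCGG, searched on both strands, was found 5 times in the Ptpn6 window and 4 times in the printed Pik3r1 window, and 32.7% of all windows hold it. The E box CACGTG was found once, in the Irs1 window, and 6.02% of all windows hold it. These matches describe letters and not binding, and no methylation value was analysed here. The printed Src window begins at 157424043, while the gene position given below begins at 157418444. The Grb2 windows end at 115700178 and 115699784, while that gene, on the minus strand, begins at 115708597. Any starts further upstream of these windows were not examined.

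The libraries held 12473857 to 18864327 reads on genes. Levels are CPM, read counts scaled to a common library size after TMM normalization, a gene passed at an adjusted p under 0.05 in edgeR's quasi-likelihood test over 16052 genes, and 95% intervals of fold changes come from the same fit. Dnmt1 was at 400.03, 444.541 and 487.125 CPM in Ctrl and between 206.063 and 244.367 CPM in the 6 libraries of KO and ALKKO mice, with no overlap. One KO library, from the female mouse (KO2), stood apart. The summed level of 4 B cell markers was 1531 CPM there against 34.3 to 70.3 in the other 8 thymus libraries, the sum of 5 myeloid markers, of which Itgam was listed at 0 everywhere, was 2163 against 401 to 617, and the sum of 9 thymocyte markers, of which Rag1 was listed at 0 everywhere, was 3339 against 6571 to 9379. Why Rag1 and Itgam were listed at 0 was not checked, and it is not read as absence of their RNA. In the tumors the thymocyte sum was 2012 to 2424 CPM, and Cd4, at 1287 to 1409 CPM in Ctrl, was between 27.5 and 116. Of the 8 thymocyte markers tested, 7 had lower estimates in the tumors than in Ctrl. Ptcra went the other way, at 424, 142 and 32.5 CPM in ALK against 46.3 to 49.0 in Ctrl (edgeR adjusted p = 0.0595). In such bulk RNA, fewer cells of a type and less RNA per cell cannot be told apart. Nothing states that libraries of 1 group were prepared independently beyond coming from separate mice, and p-values measure the spread between these mice.

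In the tumors 3 of the 10 genes passed against Ctrl, with Alk higher and Src and Pik3r1 lower. This is 30% of the genes with Alk counted, beside 29.5% of all genes tested (14.8% higher and 14.7% lower). Alk entered the test only through the libraries that carry the transgene, so its call is a description and supports nothing about the group. Of the 9 others 2 passed, both lower, beside the same 29.5% of all genes in either direction. Without Ctrl1 or without Ctrl3, 0 of these 9 passed. The median log2 fold change of the 10 genes was −0.13, beside 0.05 over all genes tested. In KO against Ctrl, 0 of the 10 passed (0.0187% of all genes passed), both with edgeR and with DESeq2, and 0 had an unadjusted p under 0.05 (5.52% of all genes). In ALKKO against Ctrl 1 of the 10 passed, Alk (0.187% of all genes passed), and Alk was the 1 gene of all tested that passed in ALKKO against KO (0.00623%). In ALK against ALKKO, Src and Pik3r1 passed and both were lower in the tumors, 2 of 10 beside 28.1% of all genes (13.4% higher and 14.7% lower). For the difference between the NPM-ALK effect with and without Dnmt1, 0 of the 10 passed (10.3% of all genes) in edgeR, with 2 at an unadjusted p under 0.05 (27.7% of all genes), and 1 passed in DESeq2. The ALK mice here gave tumor cells and the ALKKO mice thymocytes, so the deletion and the tumor state cannot be told apart in that comparison. The comparisons against Ctrl share the same 3 control mice.

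**Figure D1:**
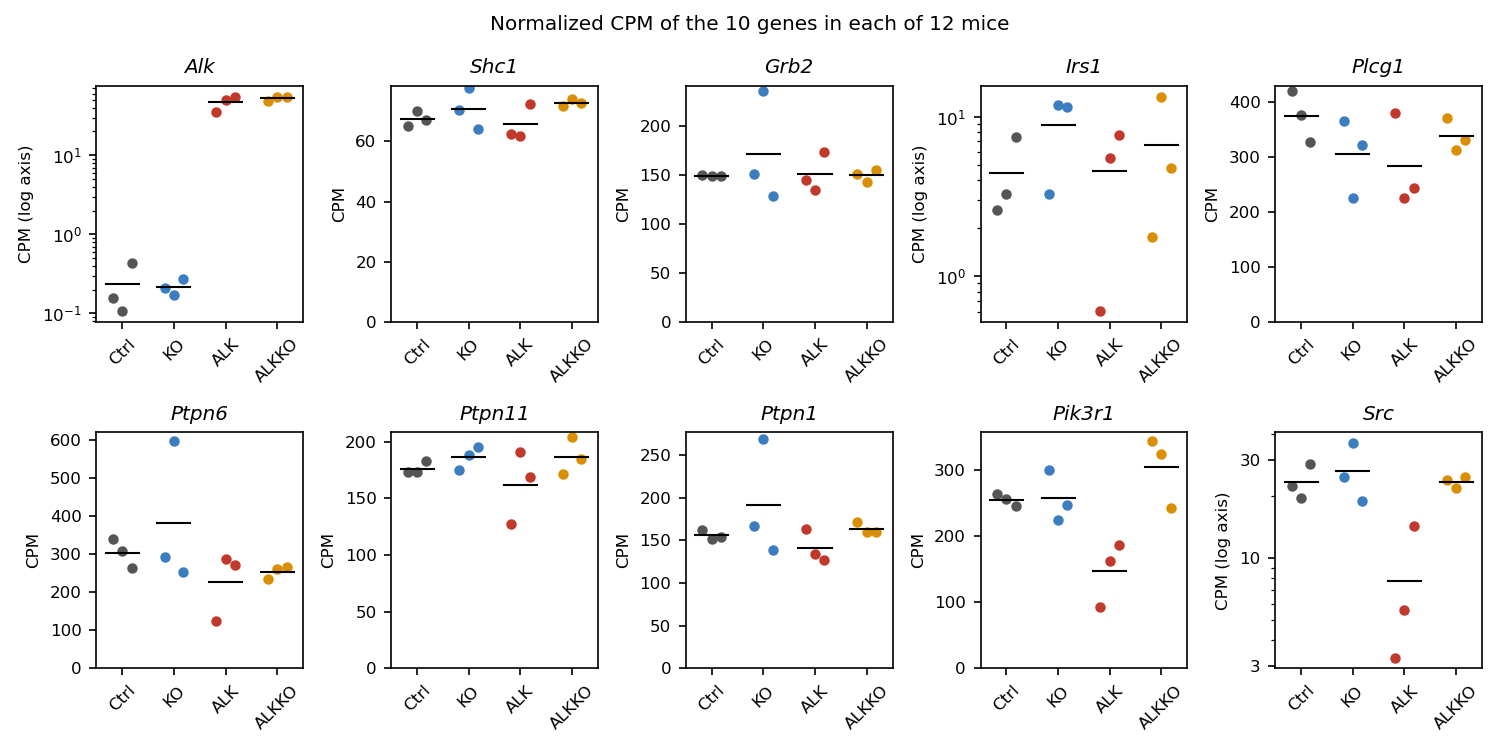
Normalized CPM (vertical axes; log axes for Alk, Irs1 and Src, all others from 0) of each gene in the 3 mice of Ctrl, KO, ALK and ALKKO (horizontal axes); a point is 1 mouse and a line the mean of the group. Alk separates the transgenic mice from the others, and Src and Pik3r1 sit lowest in the 3 tumors. KO2 is the highest library for Shc1, Grb2, Ptpn6, Ptpn1 and Src.

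Alk lies on the minus strand of chr17 at 71868972 to 72604627 (GRCm38, as are all gene positions given here). It was at 0.159, 0.107 and 0.431 CPM in Ctrl and at 0.212, 0.172 and 0.27 in KO, which are 2 to 8 reads per library and lie around the floor of 3 reads (0.159 to 0.24 CPM). It was at 34.9, 50.3 and 54.3 CPM in ALK and at 49.0, 54.8 and 55.0 in ALKKO. The transgenic and the other libraries did not overlap, while the tumors and the ALKKO thymocytes did. Alk passed the low-count filter only through the transgenic libraries, so it had to differ between the groups, and no fold over the 2 to 8 reads of the other mice is given. Between ALK and ALKKO the fold was 0.878 with an interval of 0.547 to 1.41 (edgeR adjusted p = 0.679), which leaves room for differences of either sign. Reads of the human transgene can be counted on mouse Alk only as far as they align there, and the transgene holds only part of ALK, so the level is not set beside those of the other genes per length.

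The 5 genes whose levels over the 12 libraries were most like that of Alk were Gm17910, Gm5611, Clec11a, Gm10785 and Cyp39a1, with root mean square distances of 0.194, 0.326, 0.416, 0.42 and 0.427 between standardized log2 (CPM + 1) values. Cyp39a1, which encodes a sterol hydroxylase, was at 4.65, 4.98 and 5.55 CPM in Ctrl and at 15.2 to 24.1 in the tumors and 15.4 to 20.7 in ALKKO. KO2 was at 12.4 CPM, above the other KO mice. Gm17910 was listed at 0 in all Ctrl and KO libraries and at 0.739 to 1.39 CPM in the transgenic ones. The 12 libraries fall into a set with the transgene and a set without it, so this likeness rests mainly on that division.

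The adaptor genes did not pass in any comparison, with narrow intervals for Shc1 and Grb2 and wide ones for Irs1. Shc1 (chr3, 89418443 to 89430027, plus strand) encodes the adaptor that recruits GRB2 to phosphorylated receptors. Its level was 65.2, 70.1 and 67.1 CPM in Ctrl, 70.4, 77.7 and 64.1 in KO, 62.6, 61.9 and 72.5 in ALK, and 71.9, 74.0 and 72.7 in ALKKO. The groups overlapped except that all ALKKO mice were above all Ctrl mice, as were 9.92% of all genes, and the fold there was 1.08 with an interval of 0.911 to 1.28 (edgeR adjusted p = 0.9998). Tumors had 0.973 times the control level (0.82 to 1.15). Grb2 (chr11, 115644045 to 115708597, minus strand) encodes the adaptor that brings the RAS activator SOS to receptors. Its level was 151, 149 and 149 CPM in Ctrl, 151, 236 and 129 in KO, 145, 135 and 174 in ALK, and 151, 143 and 156 in ALKKO. The 3 controls were within a factor of 1.01 of each other, and KO2 was above every other library. Tumors had 1.01 times the control level (0.747 to 1.37).

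Irs1 (chr1, 82233101 to 82291416, minus strand), the docking protein of the insulin receptor, was the lowest of the adaptors and the most variable of the 10 genes among the tumors. It was at 2.59, 3.27 and 7.49 CPM in Ctrl, 3.29, 11.8 and 11.5 in KO, 0.605, 5.5 and 7.66 in ALK, and 1.76, 13.3 and 4.79 in ALKKO. Mice of 1 group differed by 2.89 to 12.7 times, and all groups overlapped. The fold of ALK over Ctrl was 1.03 with an interval of 0.249 to 4.25, so changes of up to 4 times in either direction lie within it.

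Plcg1 (chr2, 160731300 to 160775760, plus strand), the phospholipase C of T cell receptor signaling, was at 420.3, 377 and 328 CPM in Ctrl, 367, 226 and 323 in KO, 380.0, 227 and 244 in ALK, and 370.9, 313 and 331 in ALKKO. Of the tumors, ALK2 and ALK3 were below all controls and ALK1 lay within them. The fold of ALK over Ctrl was 0.756 (0.533 to 1.07), which did not pass (edgeR adjusted p = 0.202), and it passed without ALK1 (log2 fold change −0.67, edgeR adjusted p = 0.0284). Exons of Plcg1 overlap those of Zhx3 on the opposite strand, which had up to 1071 reads in a library, and the strand setting of the counting is not given in the sources used here, so part of either count is uncertain. In KO2 Plcg1 was at 0.657 of the mean of the other KO mice, and its B cell relative Plcg2 was at 212 CPM there against 16.9 to 33.3 in the other thymus libraries, as were the B cell markers given above. The part of these cells in the KO values was not tested.

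The phosphatases did not pass in any comparison. Ptpn6 (chr6, 124720707 to 124738714, minus strand) encodes SHP-1, an inhibitory phosphatase of blood cells. It was at 339, 308 and 265 CPM in Ctrl, 293, 597 and 253 in KO, 123, 288 and 273 in ALK, and 234, 262 and 266 in ALKKO. ALK1 was the lowest of the 12 libraries and the other tumors lay among the controls. Tumors had 0.75 times the control level (0.435 to 1.29, edgeR adjusted p = 0.402). KO2 had 2.19 times the mean of the other KO mice, the largest such ratio of the 10 genes, and it was the library with the high B cell and myeloid marker sums. Whether these cells make the Ptpn6 level there was not tested. Ptpn11 (chr5, 121130533 to 121191397, minus strand), encoding SHP-2, was at 173, 173 and 183 CPM in Ctrl, 176, 188 and 196 in KO, 127, 191 and 169 in ALK, and 172, 204 and 185 in ALKKO. Its groups overlapped, and the fold of ALK over Ctrl was 0.919 (0.734 to 1.15). Ptpn1 (chr2, 167932057 to 167979385, plus strand), encoding PTP1B, was at 162, 152 and 154 CPM in Ctrl, 167, 269 and 138 in KO, 163, 133 and 126 in ALK, and 172, 160.3 and 159.7 in ALKKO. ALK2 and ALK3 were below all thymus libraries and ALK1 was not. Tumors had 0.905 times the control level (0.653 to 1.25).

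Pik3r1 and Src fell in the tumors. Pik3r1 (chr13, 101680563 to 101768217, minus strand) encodes p85alpha, which holds and stabilizes the catalytic subunit of phosphoinositide 3-kinase. It was at 264, 257 and 246 CPM in Ctrl, 301, 225 and 248 in KO, 92.4, 162 and 186 in ALK, and 345, 325 and 243 in ALKKO. All 3 tumors were below all 9 thymus libraries. The fold of ALK over Ctrl was 0.574 with an interval of 0.398 to 0.829 (edgeR adjusted p = 0.0299), and that of ALK over ALKKO was 0.482 (0.334 to 0.697, edgeR adjusted p = 0.0100). Of all genes, 25.1% had all tumors below all controls and 23.7% had all tumors below all ALKKO mice. The log2 difference between the NPM-ALK effect with intact Dnmt1 (ALK minus Ctrl) and after its deletion (ALKKO minus KO) was −1.04 with an SE of 0.34 and did not pass (edgeR adjusted p = 0.0753). Of 19 alternatives it passed in 3: with DESeq2 (adjusted p = 0.0252), without ALK1 (edgeR adjusted p = 0.0482) and without ALK3 (edgeR adjusted p = 0.0321). In the other 16 it did not pass. In ALK against Ctrl the call was lost when any 1 control was left out (edgeR adjusted p from 0.064 to 0.0759), and in a fit of these groups alone (edgeR adjusted p = 0.0746).

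Src (chr2, 157418444 to 157471862, plus strand), the founding member of its kinase family, was at 22.6, 19.6 and 28.6 CPM in Ctrl, 24.8, 36.3 and 18.9 in KO, 3.29, 5.59 and 14.3 in ALK, and 24.0, 21.9 and 24.8 in ALKKO. The 3 tumors were below every thymus library and differed among themselves by 4.35 times, against 1.46 times among the controls. Of all genes, 25.1% had all tumors below all controls and 23.7% had all tumors below all ALKKO mice. The share below every thymus library was not counted. A wider range in the tumors than in Ctrl was found for 83.5% of all genes. The fold was 0.328 (0.161 to 0.669) over Ctrl, with an edgeR adjusted p of 0.0262, and 0.328 (0.161 to 0.668) over ALKKO, with an edgeR adjusted p of 0.0271. The log2 difference between the NPM-ALK effects with and without Dnmt1 was −1.43 (SE 0.64, edgeR adjusted p = 0.177) and, of 19 alternatives, passed only without ALK3 (edgeR adjusted p = 0.0121). Without ALK3 the log2 fold change over Ctrl was −2.42 in place of −1.61. The call over Ctrl was lost without Ctrl1, Ctrl3 or ALK2 (edgeR adjusted p = 0.0591, 0.081 and 0.0793) and in the fit of these groups alone (edgeR adjusted p = 0.0825), and the call over ALKKO was lost without ALK2 or any 1 of the ALKKO mice (edgeR adjusted p from 0.0531 to 0.0846) and in the fit of these groups alone (edgeR adjusted p = 0.0914).

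Of 3 epithelial markers, Krt8 was lower in the tumors than in Ctrl (edgeR adjusted p = 0.0108), and Krt5 (edgeR adjusted p = 0.149) and Epcam (edgeR adjusted p = 0.502) did not pass. Like Src, each was lowest in ALK1 and highest in ALK3 among the tumors. This order was not particular to them, since Alk, Irs1 and Pik3r1 had it too and Col1a1 and Col1a2 had the reverse. Of all genes, 37.9% were lowest in ALK1 among the tumors and 35.6% highest in ALK3. Krt8 was at 206 to 286 CPM in Ctrl and at 0.873, 5.41 and 23.0 in ALK1, ALK2 and ALK3, and Krt5 was at 176 to 197 in Ctrl and at 0.672, 21.1 and 86.0. Epcam was at 43.6 to 54.0 CPM in Ctrl and at 1.95, 41.1 and 45.3 in the tumors, which overlapped. The sum of the 6 stromal and epithelial markers went the other way, from 518 to 567 CPM in Ctrl to 717 to 1286 in the tumors, through Col1a1 and Col1a2. In KO2, where Krt8 was at 17.3 CPM, Src was at 36.3 CPM, the highest of all libraries. The part of epithelial cells in the Src level was not tested.

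**Figure D2:**
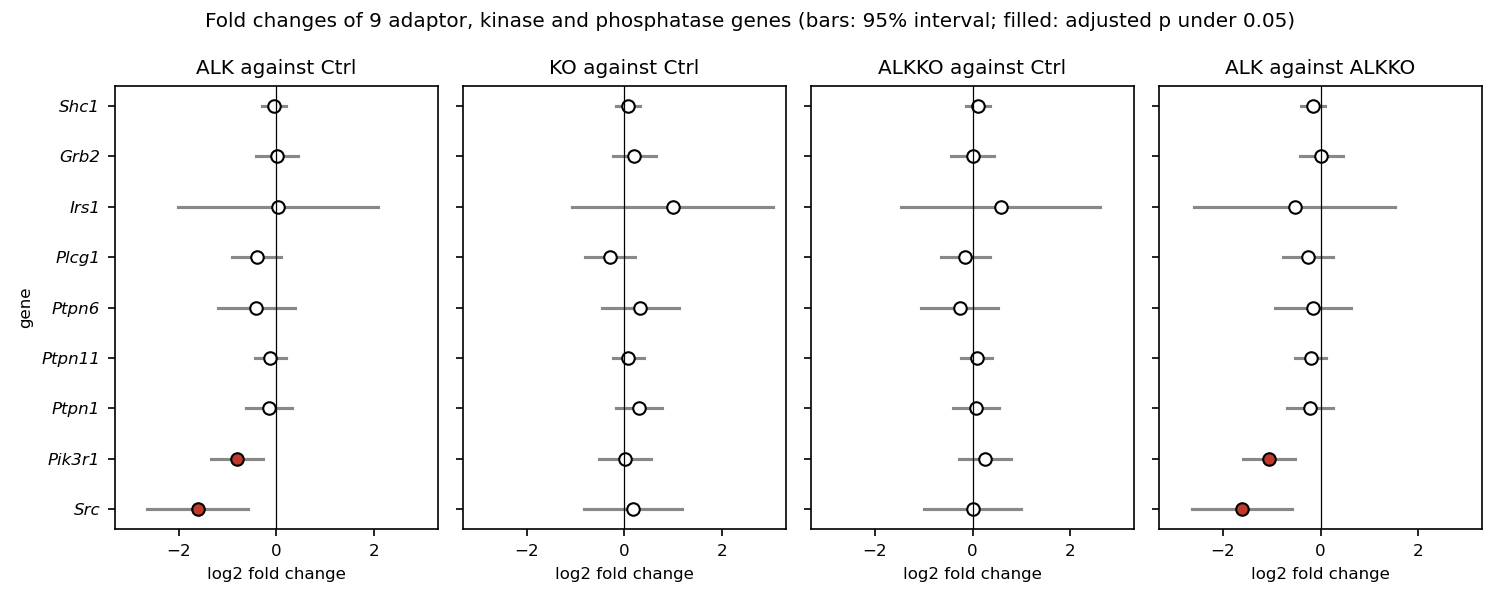
Log2 fold changes (horizontal axes) of the 9 genes below the receptor (vertical axis) in 4 comparisons; points are estimates, bars their 95% intervals, and filled points passed at an adjusted p under 0.05. Only Pik3r1 and Src are filled, in ALK against Ctrl and in ALK against ALKKO, and the interval of Irs1 is the widest.

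Over all 10 genes the tumors varied more than the controls. The ratio of the highest to the lowest mouse was larger in ALK than in Ctrl for 9 of the 10, the exception being Alk itself, and for 83.5% of all genes tested. ALK1 was the lowest tumor for 6 of the 10 genes, beside 37.9% of all genes. KO2 lay outside all other thymus libraries for 7 of the 10: Shc1, Grb2, Plcg1, Ptpn6, Ptpn1, Pik3r1 and Src. It did so for 59.3% of all genes tested. Without KO2, again 0 of the 10 passed in KO against Ctrl.

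Compared per kilobase of exon, the genes of control thymus were ordered with Ptpn6 at the top and Irs1 at the bottom. Ptpn6 was at 109 ± 13.4 CPM per kb (SD, n = 3), Grb2 at 51.3 ± 0.26, Plcg1 at 47.7 ± 5.91, Ptpn1 at 28.2 ± 1.02, Pik3r1 at 25.4 ± 0.895, Ptpn11 at 23.5 ± 0.734, Shc1 at 11.95 ± 0.442, Src at 5.39 ± 1.05 and Irs1 at 0.487 ± 0.291. Of neighbours in this order, only the ranges of Grb2 and Plcg1 overlapped. In the tumors the mean of Pik3r1 was 14.6 ± 4.83 CPM per kb, below the 21.6 ± 4.31 of Ptpn11, and all neighbours overlapped except Shc1 and Src. In ALKKO Pik3r1 was at 30.2 ± 5.34 and overlapped Ptpn1 at 29.6 ± 1.23.

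Each gene was also set against its closest relatives, as a share of the family's summed reads per kb, which removes scaling between libraries. Of the 3 genes for phosphoinositide 3-kinase regulatory subunits, Pik3r1 made 61.6%, 61.3% and 61.6% in Ctrl, 65.5%, 64.6% and 61.1% in KO, 67.6%, 67.7% and 58.3% in ALKKO, and 20.9%, 47.4% and 45.3% in the tumors. The tumors were below all thymus libraries, by 23.6 percentage points from Ctrl in the mean (exact two-sided permutation test, p = 0.1, the smallest that 3 mice against 3 allow). The other side of this shift was Pik3r2, the gene for p85beta, which rose from 56.1, 52.7 and 52.1 CPM in Ctrl to 134, 68.7 and 81.5 in ALK (log2 fold change 0.82, edgeR adjusted p = 0.0186). Pik3r3 was at 14.6 to 18.6 CPM in Ctrl and at 7.25 to 15.0 in the tumors (edgeR adjusted p = 0.289).

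Src made 0.564%, 0.487% and 0.958% of the RNA of its 8-gene kinase family in Ctrl and 0.141%, 0.218% and 0.491% in the tumors, which overlapped (exact two-sided permutation test, p = 0.2). Lck, the family member of T cells, was at 1792 to 2496 CPM in Ctrl and at 1235 to 1703 in the tumors (edgeR adjusted p = 0.13). Shc1 made 95.7% ± 0.0886 of the RNA of Shc1 to Shc4 in Ctrl and 94.4% ± 0.809 in ALK (SD, n = 3; exact two-sided permutation test, p = 0.1). Shares of Ptpn6 in Ptpn6 plus Ptpn11 were 82.0% ± 2.31 and 77.9% ± 4.92 (exact permutation p = 0.3, n = 3), and those of Ptpn1 in Ptpn1 plus Ptpn2 were 63.3% ± 2.23 and 54.7% ± 9.18 (exact permutation p = 0.3, n = 3). Plcg1 made 89.8% ± 2.45 of Plcg1 plus Plcg2 in Ctrl and 92.7% ± 3.69 in ALK (exact permutation p = 0.4, n = 3), but 36.9% in KO2. Irs1 made 0.908%, 20.3% and 18.8% of Irs1 plus Irs2 in the tumors and 3.21%, 4.24% and 9.52% in Ctrl, which overlapped.

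**Figure D3:**
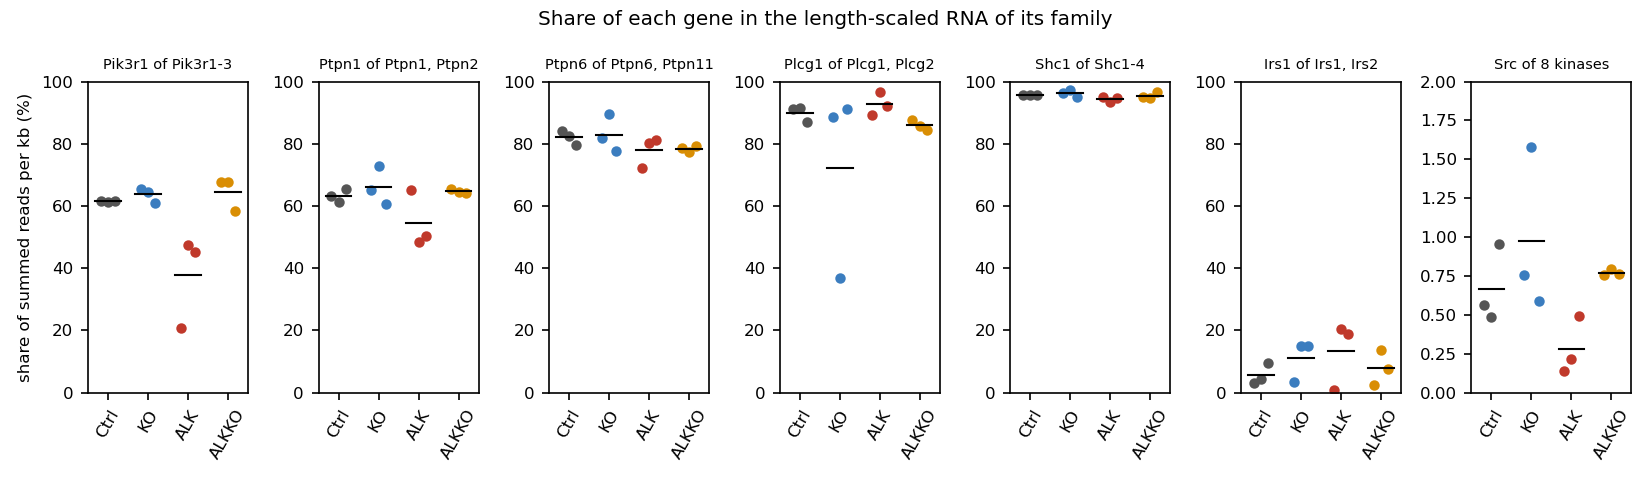
Share (vertical axes, %) of 7 of the genes in the length-scaled RNA of their families, for the 3 mice of each group (horizontal axes; points are mice, lines means; the axis of Src ends at 2%). The 3 tumors lie between 20.9% and 47.4% for Pik3r1, below all thymus libraries, and KO2 stands at 36.9% for Plcg1.

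The rest of the pathway was described with 6 lists of 87 genes, 84 of them tested. Against Ctrl, 13 of these rose in the tumors and 11 fell, 28.6% beside 29.5% of all genes. In each of KO against Ctrl, ALKKO against Ctrl and ALKKO against KO, 0 of the 84 passed in edgeR, with 3, 1 and 1 genes at an unadjusted p under 0.05 (5.52%, 3.18% and 2.69% of all genes). Between tumors and ALKKO thymocytes, 12 were higher and 11 lower in the tumors, 27.4% beside 28.1% of all genes (13.4% higher and 14.7% lower). The 24 genes against Ctrl became 15 without Ctrl2 and 12 without Ctrl3, and the 23 against ALKKO became 14 without ALKKO1 or ALKKO2 and 11 without ALKKO3.

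Of the receptors and ligands 3 were tested, 0 rose and 1 fell (33.3% passed, beside 29.5% of all genes). Mdk, the gene of the heparin-binding growth factor midkine, was at 11.04, 7.02 and 6.90 CPM in Ctrl and at 2.75, 2.27 and 5.24 in ALK (log2 fold change −1.28, edgeR adjusted p = 0.0470). Its relative Ptn was at 3.91 to 6.42 CPM in Ctrl and at 0.336, 20.1 and 122 in the tumors, which did not pass (edgeR adjusted p = 0.0766). Alkal1, which encodes a ligand of full-length ALK and was not tested because of its low counts, had 6, 1 and 0 reads in Ctrl and 2, 50 and 170 in ALK1, ALK2 and ALK3, and was singled out after its values were seen.

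Of the other adaptors and docking proteins, 3 of 20 rose and 3 fell in ALK against Ctrl (30% passed, beside 29.5% of all genes). Cblb, a ubiquitin ligase that restrains T cell activation, was at 66.8, 59.0 and 59.8 CPM in Ctrl and at 103, 322 and 363 in ALK (log2 fold change 2.09, edgeR adjusted p = 0.00696). Its relative Cbl went the other way, from 700.4, 891 and 913 CPM to 457, 499 and 424 (log2 fold change −0.86, edgeR adjusted p = 0.0393). Frs3, a docking protein of growth factor receptors, rose from 1.61 to 2.64 CPM to 4.19 to 10.3. Grb7, an SH2 adaptor, fell from 2.91, 3.22 and 4.21 CPM to 0.672, 0.437 and 0.626 (log2 fold change −2.55, edgeR adjusted p = 0.00137).

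The RAS and MAP kinase list had 4 of 17 genes higher and 0 lower, 23.5% beside 29.5% of all genes. Spry1, an inhibitor of RAS signaling, was at 9.67, 10.99 and 9.81 CPM in Ctrl and at 27.1, 73.9 and 32.5 in ALK (log2 fold change 2.13, edgeR adjusted p = 0.00315). Mapk3, the gene of ERK1, was at 78.1, 71.7 and 74.1 CPM in Ctrl and at 126, 296 and 181 in ALK (log2 fold change 1.43, edgeR adjusted p = 0.00267). Nf1, whose product switches RAS off, was at 37.0 to 46.0 CPM in Ctrl and at 71.9 to 139 in ALK.

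In the phosphoinositide 3-kinase and AKT list, 3 of 16 genes rose and 5 fell, the highest share of the lists (50% passed, beside 29.5% of all genes). Besides Pik3r2, Pik3cb, a catalytic subunit, rose from 15.3 to 22.1 CPM in Ctrl to 29.8 to 35.7 in ALK (log2 fold change 0.92, edgeR adjusted p = 0.0414). Pdpk1, which activates AKT, fell from 275, 285 and 319 CPM to 213, 125 and 112 (log2 fold change −0.97, edgeR adjusted p = 0.0185).

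Of the PLC-gamma and SRC-family genes, 1 of 10 rose and 1 fell (20% passed, beside 29.5% of all genes). Fyn, a T cell kinase of the family, rose from 196, 176 and 168 CPM in Ctrl to 438, 270 and 247 in ALK (log2 fold change 0.82, edgeR adjusted p = 0.0171). Blk, the family member of B cells, fell from 13.9 to 20.0 CPM to 0 to 1.09, and the B cell marker sum, 41.1 to 70.0 CPM in Ctrl, was 2.01 to 7.90 in the tumors. In KO2 Blk was at 165 CPM. It was at 48.9 CPM in KO1, where the B cell marker sum was 34.3 CPM, the lowest of the thymus libraries. The part of B cells in these values was not tested.

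Of the other tyrosine phosphatases, 2 of 18 rose and 1 fell (16.7% passed, beside 29.5% of all genes). Ptpn14, the gene of a non-receptor phosphatase, was at 55.6, 53.4 and 73.3 CPM in Ctrl and at 667, 481 and 273 in ALK (log2 fold change 2.96, edgeR adjusted p = 0.000417). Ptpn9 rose from 26.8 to 27.6 CPM to 46.1 to 55.0 (log2 fold change 0.87, edgeR adjusted p = 0.00645). Ptpra, a receptor-type phosphatase that activates SRC-family kinases, fell from 166, 168 and 176 CPM to 93.5, 71.8 and 80.1 (log2 fold change −1.06, edgeR adjusted p = 0.0011).

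**Figure D4:**
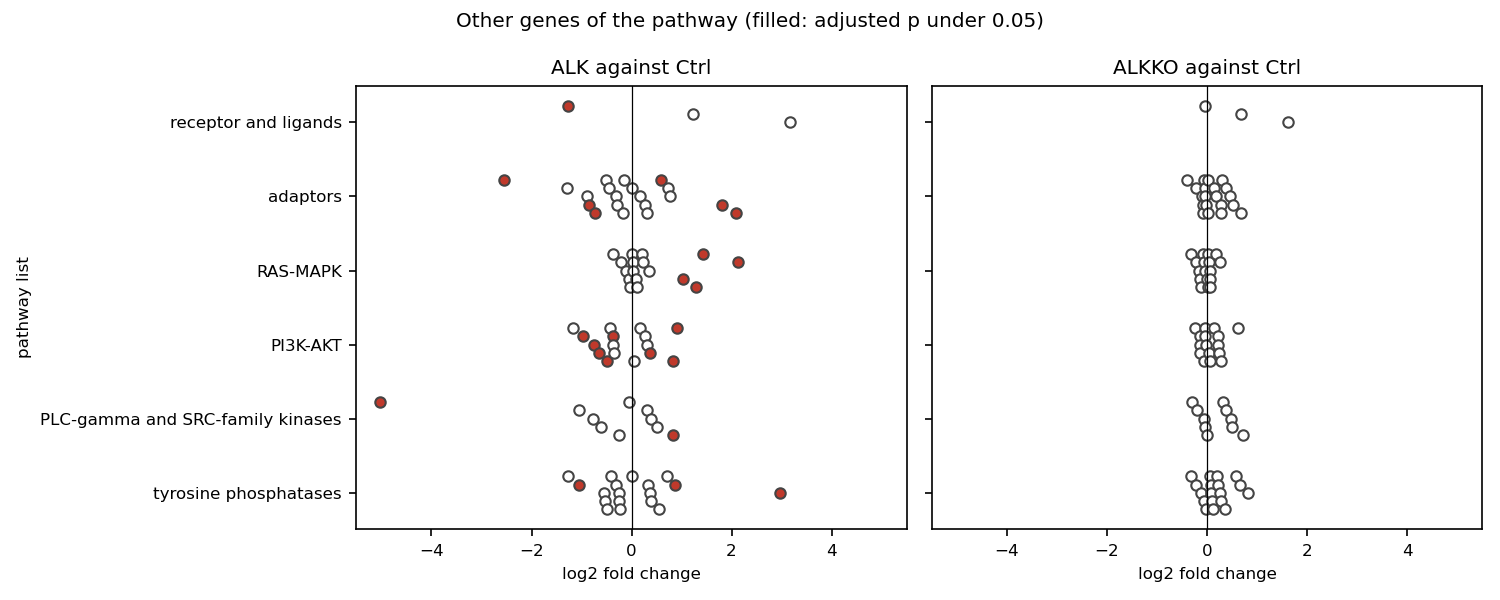
Log2 fold changes (horizontal axes) of the 84 tested pathway genes by list (vertical axis), in ALK against Ctrl and in ALKKO against Ctrl; each point is a gene, filled where it passed at an adjusted p under 0.05, and vertical offsets within a list only separate the points. In ALK against Ctrl 13 genes are filled on the right and 11 on the left, and in ALKKO against Ctrl 0 are filled.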

How the data were processed

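RNA of 12 mice, 3 in each of 4 groups, was sequenced by the authors as 50-nt single-end stranded poly(A) libraries from homogenized tissue. The deposited values are raw counts per gene: the authors trimmed reads with Trim Galore, aligned them to mm10 with STAR and counted them with HTSeq, and Picard 2.19.2 stands in the processing notes. The annotation release and strand setting are not given in the sources used here. Groups were taken from the labels. Rows naming no gene were left out. Of all counts per library, 39.2% to 51.8% stood in the row for alignment to several places. Ambiguous counts made 1.38% to 2.83%, and counts in no feature made 1.7% to 2.81%. Whether a read entered the row for several places more than once was not checked. Between 12473857 and 18864327 reads per library remained. The floors cover counting error only, while the intervals of fold changes come from the fit and include the spread between mice.

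The counts went into a robust quasi-likelihood fit of edgeR (version 4.0.16, R 4.3.3) with TMM scaling, the filterByExpr filter and 1 term per group over the 12 libraries (Benjamini-Hochberg adjustment over 16052 genes, threshold 0.05). Symbols, positions and exon lengths came from GENCODE M21 (GRCm38), and promoters from RefSeq. Family shares were compared by exact permutation tests. Alternatives were DESeq2 1.42.0, its size factors, other low-count filters, sex, age or replicate number as a term, 2-group fits and leaving out each mouse. The statistical scripts were tested on simulated data. The 10 genes and the lists were chosen with earlier results of these data known. The pathway genes named were, per list, up to 2 with the largest rise and 2 with the largest fall among those that passed in ALK against Ctrl, and up to 3 per direction by adjusted p in the other comparisons. Family partners, Dnmt1 and the 5 genes most like Alk were named as well. The values of 1 pathway gene that this rule names are not reported here.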

Additional observations from a re-analysis of the deposited data

Results flagged for a closer look

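For 8 of the 84 pathway genes and 0 of the 10 genes of the main group, the effect of NPM-ALK differed between mice with and without Dnmt1 by a test of the difference itself (ALK minus Ctrl against ALKKO minus KO, edgeR, adjusted p under 0.05), beside 10.3% of all genes. Values are given for 7 of the 8. The log2 difference was 2.76 for Ptpn14 (adjusted p = 0.00655), 2.35 for Cblb (0.038), 1.62 for Mapk3 (0.019), 1.43 for Nf1 (0.0261) and 1.03 for Ptpn9 (0.032). It was −2.71 for Grb7 (0.0116) and −1.24 for Ptpra (0.0077). In each case the ALK libraries are tumors and the other 3 groups thymocytes, so the deletion and the tumor state cannot be told apart.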

How the results depend on the processing

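Among the 10 genes, no call changed direction under any alternative. For the pathway genes only the number passing was compared, and the direction of each call was not checked. Fitting only the 2 groups compared left 1 of the 10 genes passing in ALK against Ctrl (Alk) and 0 in ALK against ALKKO, 13 pathway genes in ALK against ALKKO and 1 (Ptprk) in ALKKO against Ctrl. With at least 10 counts in every library Alk was removed by the filter, which left 0 passing in ALKKO against Ctrl and 0 in ALKKO against KO. For the difference of the NPM-ALK effects, 1 gene (Pik3r1) passed with DESeq2. Leaving out 1 mouse at a time gave 1 to 4 genes in ALK against Ctrl, 1 to 2 in ALK against ALKKO and 0 to 2 for the difference of effects. It gave 12 to 29 pathway genes in ALK against Ctrl, with 15 without Ctrl2 and 12 without Ctrl3, and 11 to 30 in ALK against ALKKO, with 14 without ALKKO1, 14 without ALKKO2 and 11 without ALKKO3. The cause was not tested.

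Replicate numbers did not pair the mice: 18 same-numbered pairs had correlations of −0.11 to 0.43, 5 of them above 0.1, and 4 of 12 libraries correlated best with their own number. With the replicate number as a block, 2 of the 10 genes passed in ALK against Ctrl, Alk and Src, and Pik3r1 had an edgeR adjusted p of 0.0568. Depth limits Alk in the mice without the transgene, with 2 to 8 reads per library.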
